A study of Mus musculus with 6 samples.

Results

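The 10 genes described here make, break down or control the level of polyamines in the cell. They are the rows of the deposited expression table whose symbols, written there in capitals, are ODC1, AMD1, SRM, SMS, SAT1, SMOX, PAOX, OAZ1, OAZ2 and AZIN1. Each symbol had 1 row among the 24908 genes of the table, and all 10 passed the filter on low values (1 FPKM or more on average across the 6 libraries), as did 12361 genes in all. The unit, FPKM, divides the fragments of a gene by the length of its transcript and by the depth of the library, so that values can be set side by side between genes. Amd1 passed the filter only through its value in WT VP, so that its place in any count involving WT VP follows from the filter and supports nothing.

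The samples were the anterior (AP), dorsolateral (DLP) and ventral (VP) prostate of FVB male mice at 12 weeks of age. The Hi-MYC animals (MYC) were heterozygous for a human c-MYC transgene under the ARR2Pb promoter, a probasin-derived promoter used to direct expression to the prostatic epithelium, and the wild-type (WT) animals were littermates without it. Both genotypes received the same purified diet from weaning, and each lobe was dissociated into a cell suspension before RNA extraction. There was 1 library for each lobe and genotype, so no difference below has a replicate check or a p-value. The titles give the 3 lobes of a genotype a shared code, read here as 1 animal, so that genotype and animal cannot be told apart.

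Polyamines (putrescine, spermidine and spermine) are small, positively charged amines that bind nucleic acids and are needed for growth. The prostate is known for making and secreting large amounts of spermine. Ornithine decarboxylase (Odc1) makes putrescine from ornithine, S-adenosylmethionine decarboxylase (Amd1) supplies the aminopropyl donor, and the synthases Srm and Sms build spermidine and then spermine. In the other direction Sat1 acetylates spermidine and spermine, Paox oxidises the acetylated forms, and Smox oxidises spermine directly. The antizymes Oaz1 and Oaz2 bind Odc1, block it and deliver it to the proteasome, while the antizyme inhibitor Azin1 ties the antizymes up. Odc1 is a textbook target of MYC, and the comparison of MYC with WT lobes asks how its transcript and those around it differ.

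The depth of the libraries, estimated from the steps between low FPKM values, was 25.5 M to 50.2 M mapped reads, lowest in WT AP. Myc itself, the gene whose human copy the transgene carries, was listed at 201 to 230 FPKM in the WT libraries, and in the MYC animal at 231 (AP), 586 (DLP) and 1696 (VP). The luminal markers Krt8, Krt18, Krt19, Cd24a and Epcam, of the secretory epithelium of the prostate, were detected in every library, the lowest value being Cd24a at 240 FPKM in MYC VP. The cell mixture differed between libraries. The summed FPKM of 7 hematopoietic markers (Ptprc, Cd74, Lyz2, C1qa, Csf1r, Cd3e, Cd79a) was 271 in WT DLP and 1125 in MYC DLP, 132 in WT VP and 390 in MYC VP, and 586 in WT AP and 410 in MYC AP. The luminal keratins Krt8 and Krt18 stood at 1292 and 1611 FPKM in WT VP, against 400 and 549 in WT AP and 446 and 526 in WT DLP. The 6 fibroblast markers summed to 1201, 1284 and 648 FPKM in AP, DLP and VP of WT and to 1365, 698 and 195 in MYC, and the 6 smooth muscle markers to 233, 419 and 358 in WT and to 373, 245 and 220 in MYC. In MYC DLP, 3 of the 6 smooth muscle markers were at least 2-fold lower than in WT DLP. The fibroblast list went both ways there, with 2 markers at least 2-fold higher (Col1a1 and Col3a1) and 2 lower (Dcn and Pdgfra). Dcn alone, the largest part of the fibroblast sum, stood at 1155 FPKM in WT DLP and 454 in MYC DLP. In MYC AP 3 of the 6 fibroblast markers were at least 2-fold higher and none lower, and in MYC VP 3 were lower and none higher. In MYC AP, 7 seminal vesicle genes summed to 524 FPKM, against 0.0966 in WT AP. In bulk RNA, fewer cells of a type and less RNA per cell cannot be told apart, and the part of these mixtures in any result below was not tested.

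**Figure D1:**
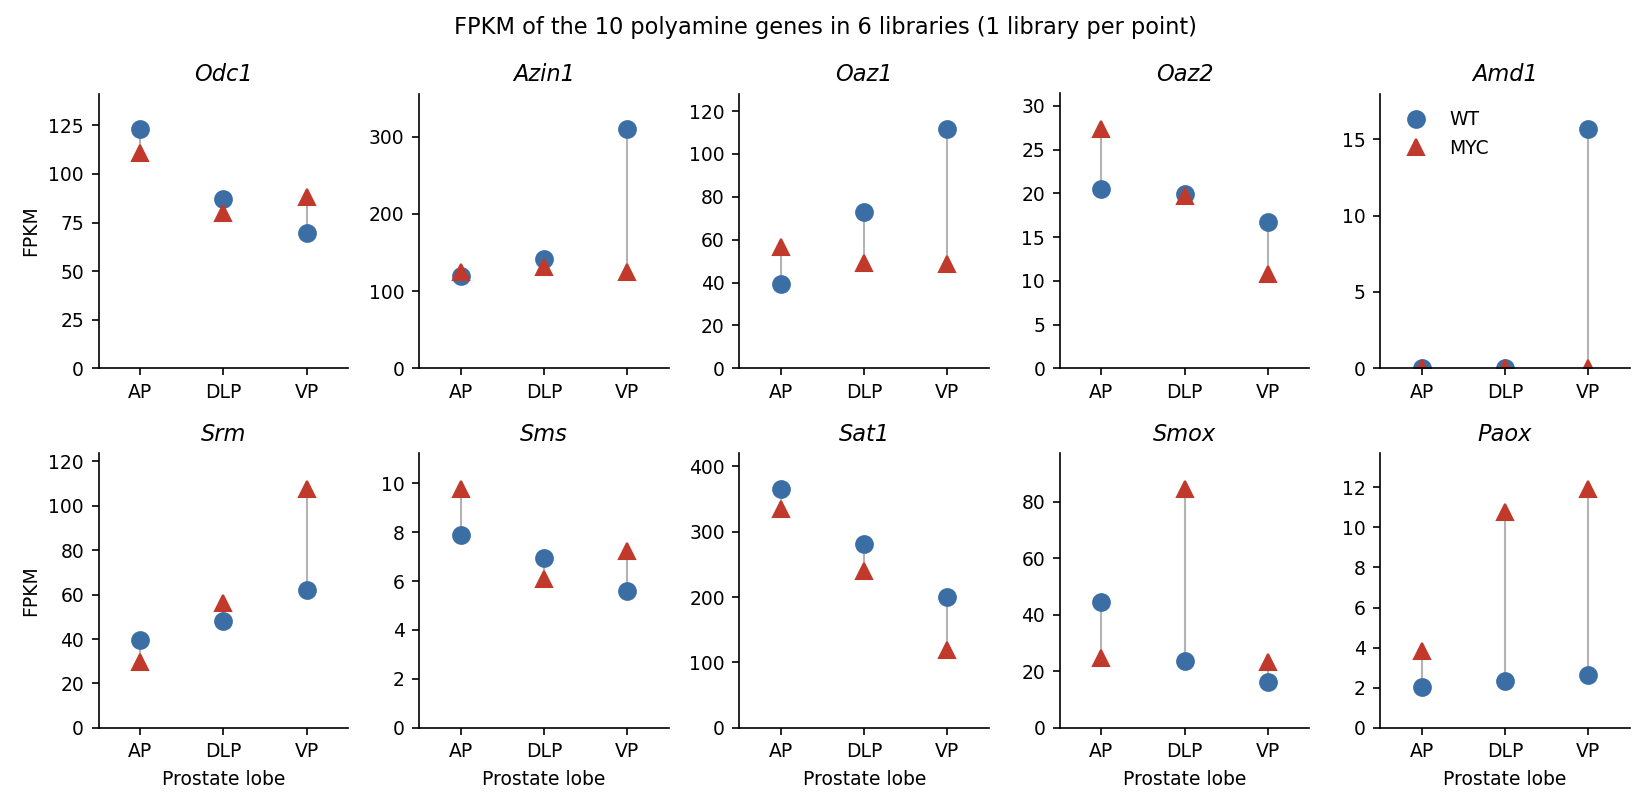
FPKM (vertical axes, linear, from 0) of the 10 polyamine genes by prostate lobe, 1 panel per gene, with blue circles for WT and red triangles for MYC and 1 library per point. Azin1, Oaz1 and Amd1 are highest in WT VP, Paox is higher in MYC than in WT in the 3 lobes, and Smox is highest in MYC DLP.

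Some members cannot be read from their own row alone, because other places in the genome carry the same sequence. Amd1 (chr10:40287458-40302188, GRCm38.p6) has a second listed gene, Amd2 (chr10:35708691-35711891), whose transcript of 3201 bases is as long as the whole gene and so has no intron. The coding sequences of both are 1005 bases long and differ at 1 position, G796C counted from the first base of the start codon of Amd1. The stretch of 75 bases around it, the length of 1 read, is shown from GENCODE M1 transcripts (coding positions 759 to 833) because that position is the only one in the coding sequence by which a read could tell the pair apart. The differing base is in capitals.
Amd1: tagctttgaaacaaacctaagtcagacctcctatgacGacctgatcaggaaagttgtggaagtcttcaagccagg
Amd2: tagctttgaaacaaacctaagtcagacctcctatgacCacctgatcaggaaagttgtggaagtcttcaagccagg

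Every stretch of 75 bases in the members' coding transcripts was also searched, on both strands, in the mouse genome NCBIM37 outside the gene itself, and an exact copy was counted as shared. For Amd1, 84.1% of the stretches were found elsewhere. For Oaz1 it was 75.1%, all on chromosome 17, where the table's transcribed pseudogene Oaz1-ps lies (chr17:17345242-17346204 in GRCm38.p6). For Paox it was 70.4%, all on chromosome 1. The shares were 38.9% for Sms, 37.8% for Odc1 and 22.5% for Sat1. Srm, Smox and Azin1 shared none, and the transcript set held no coding transcript of Oaz2. How reads that fit 2 places were assigned is not given in the sources used here, so the rows of Amd1, Oaz1 and Paox in particular are uncertain.

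Odc1 (chr12:17544808-17551502), the enzyme that commits ornithine to polyamines, was abundant in every library and differed little between genotypes. It stood at 123 FPKM in WT AP, 87.2 in WT DLP and 69.5 in WT VP, and at 111, 79.8 and 88.2 in the same lobes of MYC. The order of the WT lobes was AP, DLP, VP, and MYC VP lay above MYC DLP. The ratio of MYC to WT, as log2 of FPKM + 1 throughout, was -0.15 (AP), -0.13 (DLP) and 0.34 (VP). None of these reached the 2-fold threshold (a log2 ratio of 1 or more in size) used below to call a gene higher or lower. In VP the ratio lay at the percentile 71.0 of the 12361 genes (0 the furthest toward WT, 100 the furthest toward MYC), and with other scalings of the libraries it ranged from 0.07 to 0.59. In AP it was 0.03 when levels were taken relative to Krt8 and Krt18, on the other side of 0. The 95% interval from counting reads, which covers counting error only, was 0.30 to 0.39 for the log2 FPKM ratio in VP.

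Among the regulators of Odc1, the largest difference between genotypes was that of Azin1 in VP. Azin1 (chr15:38487430-38519294) stood at 119 FPKM in WT AP, 142 in WT DLP and 309 in WT VP, and at 125, 131 and 124 in the same lobes of MYC. WT VP stood apart, and the other 5 libraries lay between 119 and 142 FPKM. The log2 ratio of MYC to WT was -1.31 in VP, 0.07 in AP and -0.12 in DLP. Across 6 scalings the VP value ranged from -1.58 to -1.04, and Azin1 shares no stretch of read length with the rest of the genome.

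Oaz1 (chr10:80826656-80829290), the more abundant of both antizymes, stood at 39.5 FPKM in WT AP, 72.8 in WT DLP and 111 in WT VP, and at 56.6, 49.3 and 48.7 in MYC. The log2 ratio of MYC to WT was 0.51 (AP), -0.55 (DLP) and -1.18 (VP), and the VP value ranged from -1.45 to -0.90 over the scalings, below 2-fold in size relative to Krt8 and Krt18. Its pseudogene went the other way in VP. In that lobe Oaz1-ps was listed at 75.4 FPKM for WT and 116 for MYC, a log2 ratio of 0.62, and at 131, 162, 118 and 152 in WT AP, WT DLP, MYC AP and MYC DLP. Oaz1 made up 59.6% of the pair in WT VP and 23.1% to 32.4% in the other 5 libraries. In VP the sum of both rows was 187 FPKM for WT and 165 for MYC, and its log2 ratio was -0.18 in VP, -0.22 in DLP and 0.03 in AP. The 2-fold difference of Oaz1 in VP was thus not present in the sum of Oaz1 and Oaz1-ps.

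Oaz2 (chr9:65676548-65690300), the second antizyme, was lower than Oaz1 in every library. It stood at 20.5 FPKM in WT AP, 19.9 in WT DLP and 16.7 in WT VP, and at 27.3, 19.7 and 10.8 in MYC. The steps from WT AP to WT DLP and from there to MYC DLP were within counting error. The log2 ratio was 0.40 (AP), -0.01 (DLP) and -0.59 (VP), and none was 2-fold.

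The row of Amd1, which makes the aminopropyl donor, held more than a few reads in 1 library only. It was 15.7 FPKM in WT VP and between 0.0150 and 0.0275 in the other 5, which corresponds to about 2335 reads against 1.8 to 2.8. The log2 ratio of MYC to WT in VP was -4.03 with the pseudocount of 1 FPKM and -7.07 with 0.1, so that its size is set by the pseudocount, and the counting interval of the log2 FPKM ratio was -12.84 to -7.93. Amd2 held the remaining signal in each library, at 137, 166 and 156 FPKM in WT AP, DLP and VP and at 103, 93.9 and 74.2 in MYC. The sum of Amd1 and Amd2 was 137 FPKM in WT AP, 166 in WT DLP and 171 in WT VP, and 103, 93.9 and 74.2 in MYC. On the sum the log2 ratio was -0.42 (AP), -0.82 (DLP) and -1.20 (VP). The sum was lower in MYC than in WT in each lobe, and at least 2-fold lower in VP.

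**Figure D2:**
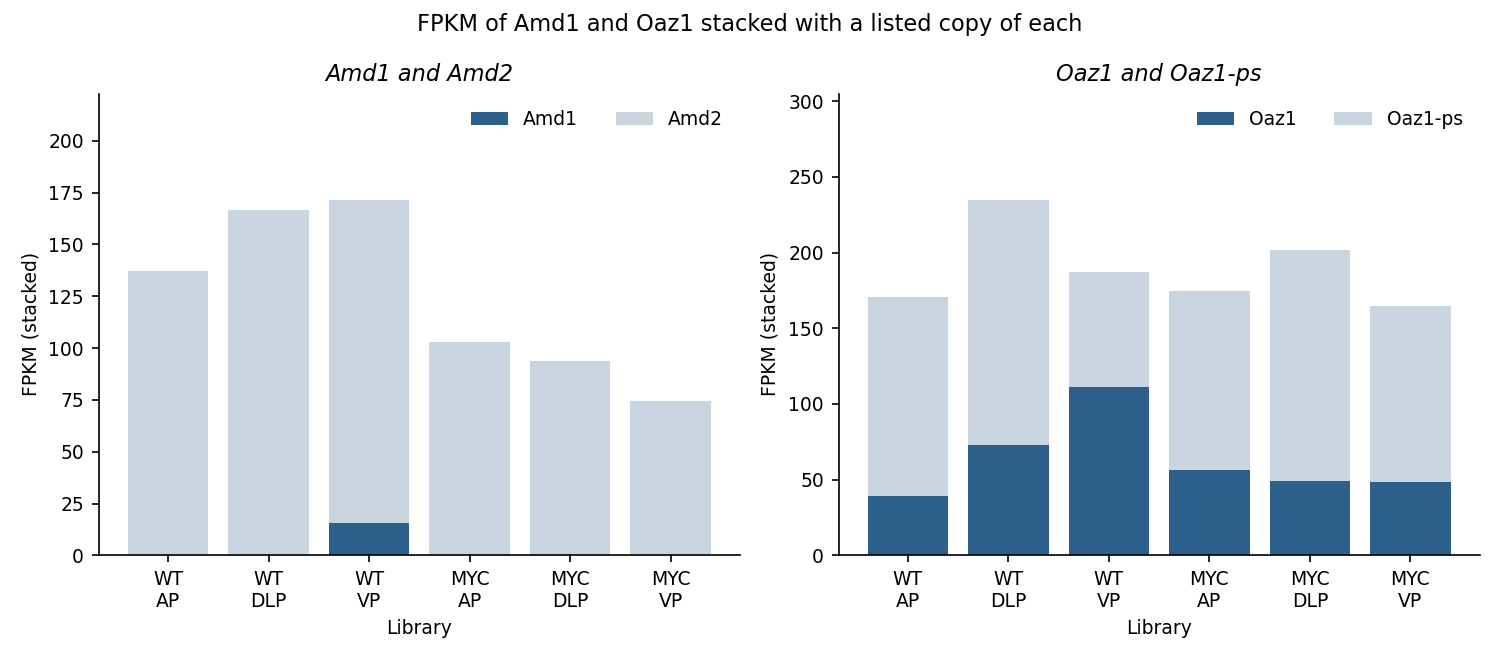
Stacked FPKM (vertical axes, from 0) of Amd1 with Amd2 and of Oaz1 with Oaz1-ps in the 6 libraries, dark for the member and light for its copy. Amd1 is visible in WT VP, at 15.7 FPKM, and the summed bar of Amd1 and Amd2 is lower in MYC than in WT in the 3 lobes, while that of Oaz1 and Oaz1-ps is 187 and 165 in VP of WT and MYC.

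The spermidine synthase Srm (chr4:148591513-148594619) stood at 39.4 FPKM in WT AP, 48.1 in WT DLP and 61.9 in WT VP, and at 29.8, 56.3 and 108 in MYC. Both genotypes had the order AP, DLP, VP, and MYC VP was the highest of the 6 libraries. The log2 ratio of MYC to WT was -0.39 (AP), 0.22 (DLP) and 0.79 (VP). The VP value was below 2-fold as deposited, ranged from 0.52 to 1.04 over the scalings, and passed 2-fold only when levels were taken relative to Krt8 and Krt18. In DLP that same scaling gave -0.0044, on the other side of 0.

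The spermine synthase Sms (chrX:157443851-157492287) was the lower of both synthases in every library. It stood at 7.87 FPKM in WT AP, 6.95 in WT DLP and 5.58 in WT VP, and at 9.77, 6.08 and 7.23 in MYC. All but the highest library lay within counting error of the next in order. The log2 ratio was 0.28 (AP), -0.17 (DLP) and 0.32 (VP).

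Of the breakdown genes, Sat1 (chrX:155213126-155216449), the acetyltransferase that marks polyamines for export or oxidation, was the most abundant member in 4 of the 6 libraries. It stood at 365 FPKM in WT AP, 281 in WT DLP and 201 in WT VP, and at 334, 240 and 120 in MYC. Both genotypes had the order AP, DLP, VP, the reverse of Srm, and MYC lay below WT in each lobe. The log2 ratio was -0.13 (AP), -0.23 (DLP) and -0.74 (VP). The AP value was 0.05 relative to Krt8 and Krt18, and the VP value ranged from -1.01 to -0.48 over the scalings. In the remaining libraries, WT VP and MYC VP, Azin1 was above Sat1, at 309 against 201 FPKM and at 124 against 120.

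Smox (chr2:131491858-131525183), which oxidises spermine back to spermidine and releases hydrogen peroxide, differed by lobe in both size and direction. It stood at 44.4 FPKM in WT AP, 23.6 in WT DLP and 16.3 in WT VP, and at 24.7, 84.6 and 23.1 in MYC. MYC DLP was the highest library, and the steps from MYC AP to WT DLP and from there to MYC VP were within counting error. The log2 ratio of MYC to WT was -0.82 (AP), 1.80 (DLP) and 0.48 (VP). The DLP value was at the percentile 97.9 of all genes compared and ranged from 1.58 to 1.80 over the scalings. Smox shares no stretch of read length with the rest of the genome. The hematopoietic markers were also higher in MYC DLP, 7 of 7 by at least 2-fold (log2 ratios of 1.37 to 3.37). The 5 basal markers (Krt5, Krt14, Krt15, Krt17 and Trp63) summed to 2212, 1464 and 696 FPKM in WT AP, DLP and VP and to 1181, 1992 and 453 in MYC. In DLP 2 of the 5 were at least 2-fold higher in MYC, and in AP 1 was higher and 2 were lower. The part of either list in the Smox value was not tested.

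Paox (chr7:140115735-140134334), the oxidase of acetylated polyamines, was the lowest breakdown gene and the only member higher in MYC in the 3 lobes. It stood at 2.04 FPKM in WT AP, 2.34 in WT DLP and 2.63 in WT VP, and at 3.85, 10.8 and 11.9 in MYC. The WT libraries lay within counting error of each other in order, as did MYC DLP and MYC VP, and the 3 MYC libraries lay above the 3 WT libraries. The log2 ratio was 0.67 (AP), 1.82 (DLP) and 1.83 (VP), and the FPKM ratio was 1.89, 4.60 and 4.53. The DLP value ranged from 1.67 to 1.82 and the VP value from 1.60 to 1.83 over the scalings. With about 62.0 reads in WT AP and 586 in MYC VP, the counting interval of the log2 FPKM ratio was 1.92 to 2.49 in DLP and 1.92 to 2.44 in VP. In VP, 4 of the 7 hematopoietic markers were at least 2-fold higher in MYC. Proliferation markers moved with Paox as well, 5 of 6 being at least 2-fold higher in MYC in both DLP and VP and 2 of 6 in AP. The part of either in the Paox value was not tested. The row itself is uncertain, since 70.4% of its stretches of read length have an exact copy on chromosome 1.

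Counted over the 10 members, none was at least 2-fold higher or lower in MYC AP, where 2.05% of the 12361 genes were higher and 0.599% lower. In DLP 2 members were higher, Smox and Paox, and none lower, against 6.46% of genes higher and 3.39% lower. In VP 1 member was higher, Paox, and 3 were lower, Azin1, Oaz1 and Amd1, against 6.88% higher and 5.95% lower. The median log2 ratio of the members was 0.03 (AP), -0.06 (DLP) and -0.13 (VP), beside 0.13, 0.03 and 0.04 over all genes. The synthesis genes Odc1, Amd1, Srm and Sms had ratios of both signs in each lobe. The VP list changed with the scaling. Relative to Krt8 and Krt18, Oaz1 (-0.90) was no longer called and Srm (1.04) was, and with equal sums without the 20 highest genes Sat1 (-1.01) was added to the lower ones. With each copy added to its gene, Oaz1 left the VP list and Amd1 stayed in it.

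**Figure D3:**
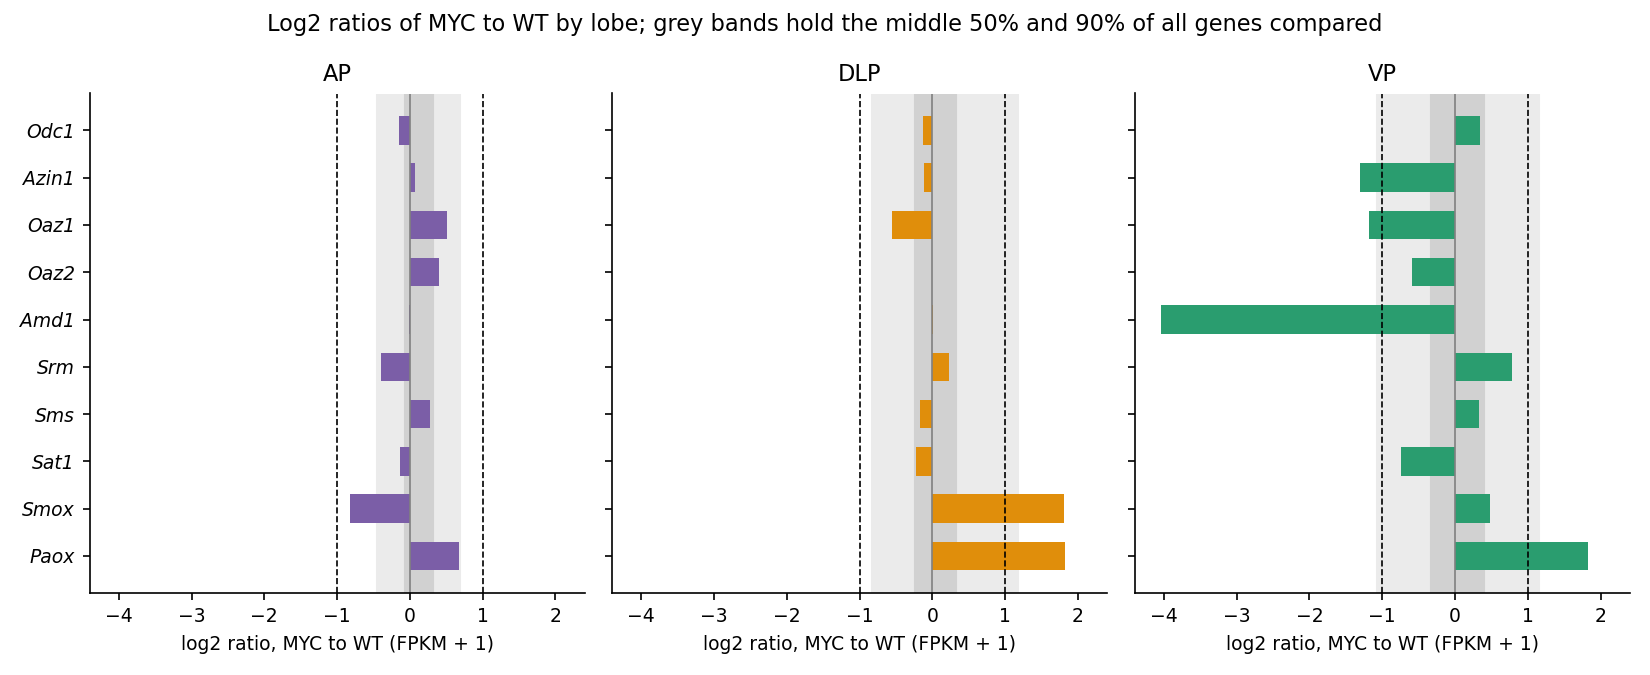
Log2 ratio of MYC to WT on FPKM + 1 (horizontal axes) for the 10 members in AP, DLP and VP, with dashed lines at 2-fold and grey bands that hold the middle 50% and 90% of the 12361 genes compared. Smox and Paox lie past 2-fold in DLP, Paox past it to the right in VP, and Azin1, Oaz1 and Amd1 past it to the left in VP.

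Between the lobes of the WT animal the members fell into opposite gradients. Odc1, Sat1, Smox, Sms and Oaz2 were highest in AP, intermediate in DLP and lowest in VP. Azin1, Oaz1, Srm and Paox had the reverse order, AP lowest and VP highest, and Amd1 was above 1 FPKM in VP only. Not all steps were beyond counting error: Oaz2 and Sms between AP and DLP, and Paox throughout, were within it. Markers of other cells had the first of these orders too, the 5 basal markers summing to 2212, 1464 and 696 FPKM in WT AP, DLP and VP and the 5 endothelial markers to 143, 108 and 23.7. The hematopoietic sum had it as well, at 586, 271 and 132. The fibroblast and smooth muscle sums did not, being highest in DLP. Krt8 and Krt18 were highest in VP, as were the members of the reverse order. The part of any of these markers in the gradients was not tested.

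Only part of these lobe differences were 2-fold. In WT VP against WT AP, 3 members were at least 2-fold higher (Azin1 at 1.37, Oaz1 at 1.47 and Amd1 at 4.02 on the log2 scale, 6.95 for Amd1 with a pseudocount of 0.1) and Smox was lower at -1.39, against 7.89% of genes higher and 10.3% lower. Sat1 at -0.86, Odc1 at -0.81 and Srm at 0.64 were below the threshold. In WT VP against WT DLP, 2 members were higher (Azin1 at 1.12 and Amd1 at 4.04, or 7.10 with a pseudocount of 0.1) and none lower, against 2.63% and 6.29% of genes. In WT DLP against WT AP no member was called, against 3.85% higher and 1.31% lower, and the largest values were Smox at -0.89 and Oaz1 at 0.87. These 3 comparisons share libraries and are not independent of each other.

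Scaling to Krt8 and Krt18, which are higher in WT VP, lowers every gene there alike, and the median of all genes became -1.41 for WT VP against DLP and -1.29 against AP. On that scale Azin1 was at -0.45 and -0.24, Oaz1 at -0.95 and -0.11, Srm at -1.19 and -0.94, and Paox at -0.935 and -0.811. Their signs turned with that common shift, and each stayed above the median of all genes. Under the other scalings Sat1, Odc1, Smox and Sms kept VP as the lowest WT lobe. Oaz2 did so too, except with a trimmed mean, where VP against DLP was 0.0070. When Oaz1 and Oaz1-ps were summed, WT VP was at 0.13 against AP and at -0.33 against DLP, so that DLP and not VP was the highest WT lobe. For Amd1 with Amd2 the values were 0.32 and 0.04, so that neither sum was 2-fold between WT lobes.

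Ratios between members within a library do not depend on how the libraries are scaled to each other. Odc1 relative to the sum of Oaz1 and Oaz2, the enzyme against its antizymes, was 2.05 in WT AP, 0.941 in WT DLP and 0.542 in WT VP. In MYC it was 1.32, 1.16 and 1.48, so that the lobes of MYC were nearer to each other than those of WT. With Oaz1-ps counted among the antizymes, the WT values were 0.643, 0.343 and 0.341 and the MYC values 0.549, 0.361 and 0.502. Measured as folds, the lobes of WT were thus nearer to each other and those of MYC further apart than without Oaz1-ps. The lobes of MYC still lay nearer to each other than those of WT. Odc1 relative to Azin1 was 0.225 and 0.710 in VP of WT and MYC, whereas in DLP it was 0.613 in WT and 0.608 in MYC and in AP 1.03 and 0.885.

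The balance of both synthases and of breakdown to synthesis also differed by lobe. Srm relative to Sms was 5.01, 6.92 and 11.1 in WT AP, DLP and VP and 3.05, 9.26 and 14.9 in MYC, highest in VP in both genotypes. Sat1 relative to the sum of Srm and Sms was 7.73, 5.10 and 2.98 in WT and 8.44, 3.84 and 1.04 in MYC. In MYC VP the acetyltransferase transcript was thus about level with that of both synthases. Smox relative to Paox, the direct against the acetyl-dependent route, was 21.8, 10.1 and 6.21 in WT and 6.41, 7.86 and 1.94 in MYC, lower in MYC in each lobe. This ratio carries the uncertainty of the Paox row, most of whose sequence has an exact copy elsewhere in the genome. These are ratios of mRNA per length and say nothing of enzyme activity.

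**Figure D4:**
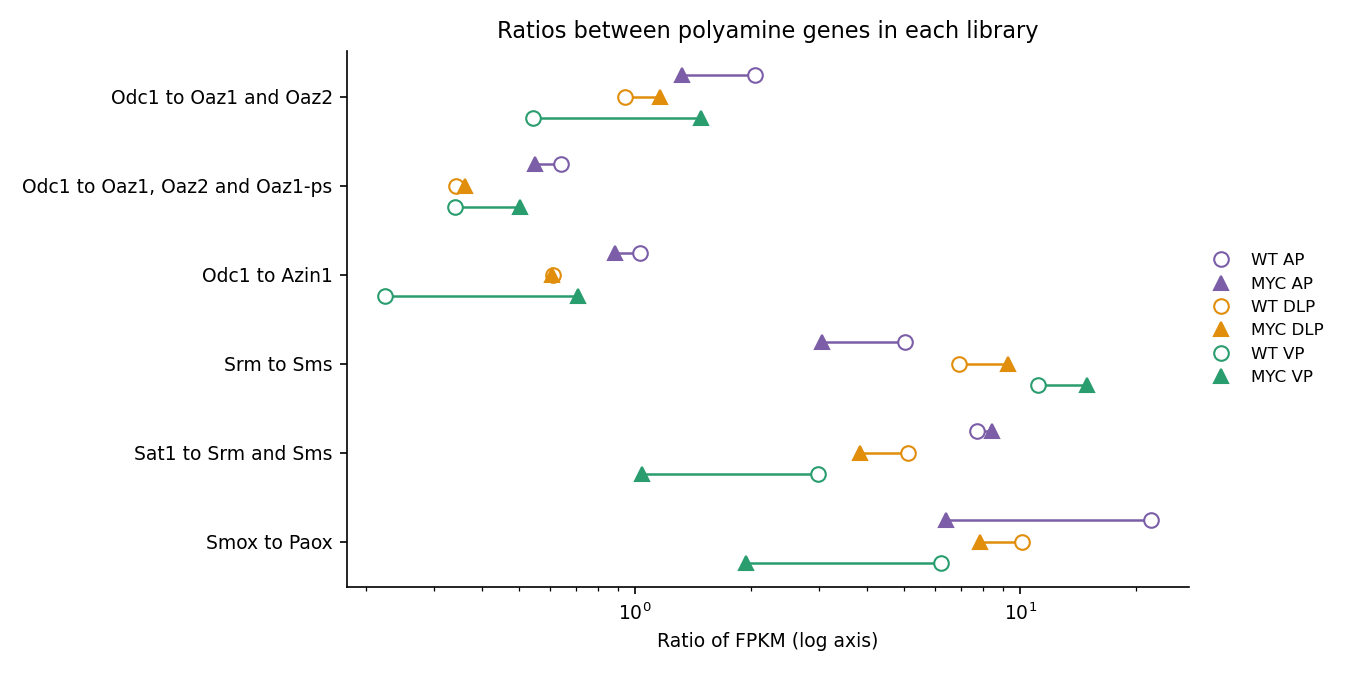
Ratios of FPKM between members (horizontal log axis) in each library, with open circles for WT, filled triangles for MYC, and a colour for each lobe. The line between circle and triangle is longest for Odc1 to Azin1, Smox to Paox and Sat1 to Srm and Sms in VP and for Smox to Paox in AP, and Odc1 to Azin1 is nearly equal between genotypes in DLP.

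Around the members, 40 further genes of the pathway were listed, of which 28 passed the filter on low values. In AP 3 of these were at least 2-fold higher in MYC and none lower, in DLP 4 higher and 1 lower, and in VP 2 higher and 6 lower. Over all genes the shares were 2.05% and 0.599% in AP, 6.46% and 3.39% in DLP, and 6.88% and 5.95% in VP. The median log2 ratio of the 28 genes was 0.21 (AP), -0.23 (DLP) and 0.02 (VP).

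Genes on the ornithine side were among the furthest apart. Gatm, which uses arginine for creatine synthesis and releases ornithine, was at 5.69 and 42.2 FPKM in WT and MYC DLP and at 1.94 and 12.7 in VP, log2 ratios of 2.69 and 2.23. Oat, which turns ornithine toward glutamate, was lower in MYC VP at -1.11 and at -0.97 in DLP. Of 4 ornithine genes that passed the filter, 2 were higher in DLP, and 1 was higher and 1 lower in VP.

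On the methionine side, 3 of 9 genes were at least 2-fold lower in MYC VP, where 5.95% of all genes were, and none was higher in any lobe. Among the 3 is Amd2, already given with Amd1. Mat2a, which makes S-adenosylmethionine, stood at 308 and 142 FPKM in VP of WT and MYC, and at 151 and 81.5 in DLP, log2 ratios of -1.11 and -0.88. Apip, of the methionine salvage route, was at -1.11 in VP, and Amd2 at -1.06. Eif5a, the translation factor that carries hypusine made from spermidine, was not past 2-fold, at 313 and 542 FPKM in VP of WT and MYC, a log2 ratio of 0.79. The enzymes that attach and finish hypusine, Dhps and Dohh, were at 0.22 and 0.52 in VP, so none of the 3 hypusine genes compared was called.

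Among transporters, the arginine and ornithine carrier Slc7a1 was lower in MYC DLP at -1.01, while Slc7a2, a carrier of the same amino acids, was higher there at 1.91 and in AP at 1.10. Atp13a2, a lysosomal polyamine exporter, was higher in VP at 1.01, and Cav1, of the caveolae through which polyamines may enter, was lower in VP at -1.06. Cav1 is also expressed by stromal cells, whose markers were lower in MYC VP as well (3 of 6 for fibroblasts and 2 of 6 for smooth muscle), and their part in its value was not tested. In the last group Aldh1a1, an aldehyde dehydrogenase, was higher in AP at 1.08 and lower in VP at -1.45. Several of these values, Slc7a1, Atp13a2, Cav1 and Amd2, lie just past the threshold.

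**Figure D5:**
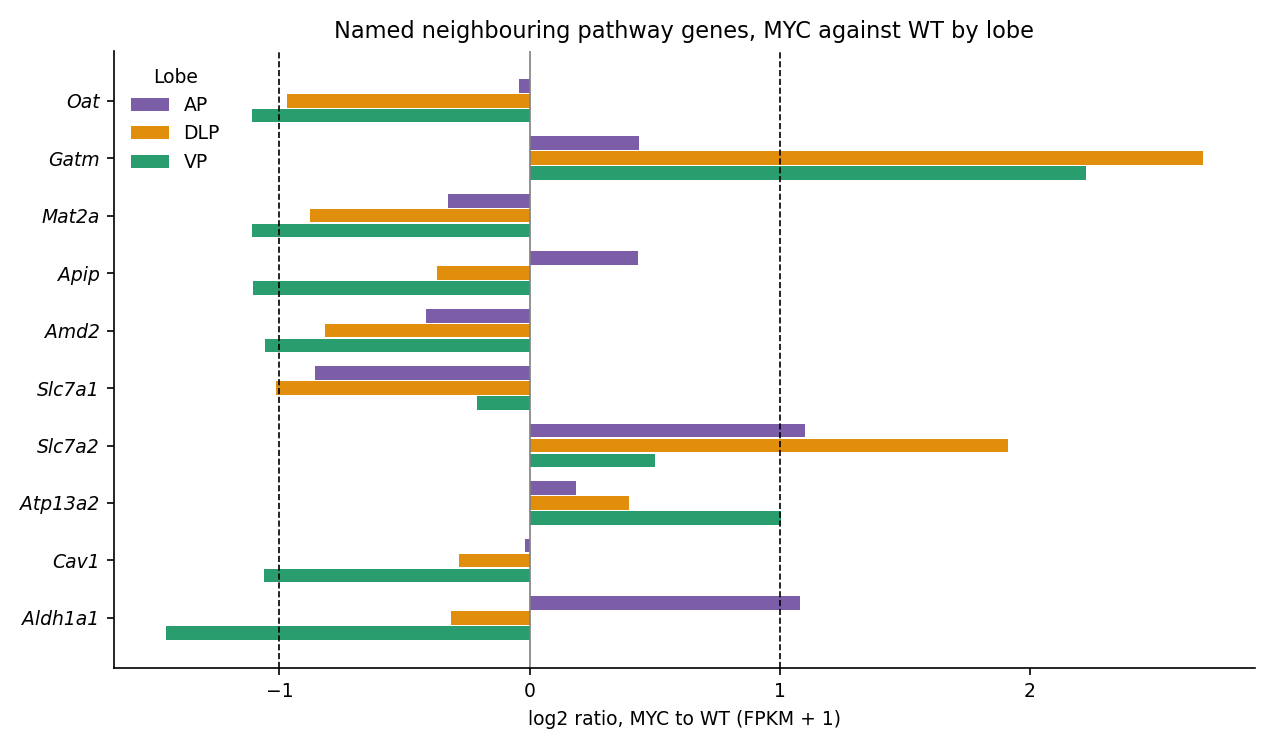
Log2 ratio of MYC to WT on FPKM + 1 (horizontal axis) of the neighbouring pathway genes named in the text as at least 2-fold apart in DLP or VP, with bars for AP, DLP and VP and dashed lines at 2-fold. Gatm extends furthest to the right in DLP, and Oat, Mat2a, Apip, Amd2, Cav1 and Aldh1a1 lie past 2-fold to the left in VP.

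The genes whose levels over the 6 libraries ran closest to a member were sought among the 5360 genes that averaged 10 FPKM or more, by the mean absolute difference of their centred log2(FPKM + 1) values. For Odc1 they included Eif1a (0.05) and Ssbp2 (0.06). For Srm they were Aup1 (0.09), Snd1 (0.10) and Pick1 (0.13), and Aup1 had 49.4, 58.3 and 84.0 FPKM in WT AP, DLP and VP and 46.6, 76.8 and 137 in MYC. For Sat1 they were Adam9 (0.05), Tnfrsf1a (0.06) and Amotl2 (0.07). With 6 libraries and 5360 genes some profiles lie this close, and the likeness is a description only.

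Promoter windows from RefSeq (250 bases before to 50 after the start site, GRCm38.p6) matched 8 of the 10 members, in 10 windows. The letters CACGTG, the E-box to which MYC and MAX can bind and which reads the same on both strands, were found in 1 of these 10 windows, against 7.2% of 32851 windows of the same length. That window belongs to Sms, the letters begin at base -196 from the start site, and the 60 bases at chrX:157492451-157492510 on the minus strand are shown because they hold this match, in capitals.
Sms: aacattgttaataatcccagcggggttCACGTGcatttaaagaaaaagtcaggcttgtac

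The windows of Odc1, Amd1, Sat1, Smox, Paox, Oaz1 and Oaz2 did not hold these letters, nor did the other window of Sms. Those of Srm and Azin1 were not analysed here. A window without them does not speak to binding further into the gene or at other letters. The window of Odc1 had a GC share of 78.0%, the highest of the 10, beside a median of 52.7% over all windows. Sms, with the match, differed by less than 2-fold between MYC and WT in each lobe.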

How the data were processed

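Poly(A) RNA of 6 dissociated prostate lobes was sequenced as single-end reads of 75 bases. Per the labels and the study's methods, the authors mapped reads with STAR to mm10 and quantified genes with Cufflinks (bcl2fastq 2.18 for base calls), and deposited FPKM; the methods speak of read counts, but the values are not whole. How reads with several matches were treated is not given in the sources used here. The 10 members and all gene lists were chosen with earlier results of these data known. Ratios were log2((FPKM + 1) of MYC / (FPKM + 1) of WT) over genes that averaged 1 FPKM or more, and called at 2-fold. With 1 library per group no test was run. Reads per gene were estimated from FPKM, mean GENCODE M1 transcript length less 200 bases, and a depth fitted to genes with 1 exon and 1 transcript under 0.3 FPKM, of which 34.4% to 48.3% per library lay within 0.03 of a whole read. From them came exact (Clopper-Pearson) 95% intervals, which cover counting error only. All members were named, together with pathway genes past 2-fold in DLP or VP and the 3 genes nearest in pattern to Odc1, Srm and Sat1. Other pathway genes and cell type markers were named where a value stood beside a result. Some genes that these rules name are left out of the text. Coordinates and promoters are from RefSeq (GRCm38.p6). No protein sequences were used here. Computations were tested on simulated data (Python 3.11.15, numpy 2.4.6, pandas 2.3.3, scipy 1.17.1).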

Additional observations from a re-analysis of the deposited data

Results flagged for a closer look

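In 4 members the log2 ratio of MYC to WT passed 2-fold in 1 lobe and had the opposite sign in another. With 1 library per lobe and genotype, none of these differences was tested. How many of all genes compared meet the same rule was not counted, so the number 4 says nothing particular to the members. For Smox the ratio was 1.80 in DLP and -0.82 in AP, a difference of 2.62. For Oaz1 it was -1.18 in VP and 0.51 in AP, a difference of -1.69, and with Oaz1-ps added the ratios were -0.18 and 0.03. For Azin1 it was -1.31 in VP and 0.07 in AP, a difference of -1.38, and the AP value lay on the other side of 0 with medians of ratios (-0.08) and with a trimmed mean (-0.07). For Amd1 it was -4.03 in VP and 0.0032 in DLP, a difference of -4.04, but the DLP value rests on about 2 reads per library, and with Amd2 added both lobes had the same sign.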

How the results depend on the processing

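Each comparison has 1 library per group, so no library could be left out. A fit of genotype with lobe as the block was not run, since the lobes of a genotype come from 1 animal and are not replicates of it. The number of members past 2-fold, as deposited, was 0 (AP), 2 (DLP) and 4 (VP) for MYC against WT, and 2 for WT VP against DLP, 4 for VP against AP and 0 for DLP against AP. A pseudocount of 0.1 and no filter left these counts as they were. A minimum mean of 10 FPKM, which removes Amd1, Sms and Paox, gave 1 in DLP, 2 in VP, 1 for WT VP against DLP and 3 for VP against AP. A 1.5-fold threshold gave 2 in AP, 7 in VP, 3 for WT VP against DLP, 7 for VP against AP and 2 for DLP against AP, and a 4-fold threshold 0 in DLP, 1 in VP, 1 for WT VP against DLP and 1 for VP against AP. Equal sums and medians of ratios each gave 1 for WT DLP against AP, and ratios to Krt8 and Krt18 gave 7 for WT VP against DLP and 6 for VP against AP, and equal sums without the 20 highest genes gave 5 in MYC VP. With copies summed, 3 were left in MYC VP, 1 for WT VP against DLP and 2 for VP against AP. Among single ratios past 2-fold, 3 changed sign, each relative to Krt8 and Krt18: Azin1 at -0.45 in WT VP against DLP, and Azin1 at -0.24 and Oaz1 at -0.11 in WT VP against AP. On that scale the median of all genes was -1.41 for VP against DLP and -1.29 for VP against AP, so that these signs follow the common shift and say nothing particular to Azin1 or Oaz1. The balance of all genes past 2-fold in MYC VP also moved with the scaling, from 850 higher and 736 lower as deposited to 553 and 1086 with equal sums, where the median of all genes was -0.15, to 713 and 917 with medians of ratios, and to 1006 and 321 relative to the keratins. In AP it moved from 254 and 74 to 200 and 134 with medians of ratios, and in DLP from 799 and 419 to 656 and 742 relative to the keratins. For WT VP against WT DLP it moved from 325 and 778 to 496 and 532 with medians of ratios. A trimmed mean gave 523 and 498 there. For WT VP against WT AP a trimmed mean moved it from 975 and 1274 to 1264 and 1076. Low numbers of reads limit Amd1 outside WT VP and Paox in WT, and the lowest depth was in WT AP.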
